A study of Drosophila melanogaster with 2 samples.

Results

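The Pax6-type genes of the fly are ey, toy, eyg and toe, and they were found by symbol in the gene table, as 4 of 17753 genes. Both libraries came from sorted medulla neuroblasts (NBs) of untreated wandering larvae in the third instar, raised at 25 °C, with 120 larvae for each sequencing experiment. All animals carried E(spl)mgammaGFP together with SoxNGal4, UAS-RedStinger and the TM6B balancer, and live single cells positive for both GFP and RFP were sorted. The SoxN driver marks medulla cells and the E(spl)mgamma reporter marks NBs, so the sort can still hold their recent progeny. Experiments 1 and 2 are 2 replicates of 1 condition, so every comparison below is between groups of cells within the libraries and rests on 2 values per group.

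Pax6 proteins are transcription factors with a paired domain and a homeodomain. In the fly, ey and toy are the orthologues of vertebrate Pax6, and both act at the top of the retinal determination network, where toy lies upstream of ey in the eye. In medulla NBs, Ey is a temporal transcription factor, one of a series that each NB expresses in turn and that sets which neurons it makes. The genes eyg and toe are a neighbouring pair that encode Pax proteins with a truncated paired domain, and eyg is known for its role in growth of the eye.

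In the BDGP6.54 annotation, which is of a later release than the one the authors counted on, ey (FBgn0005558) lies on the plus strand of chromosome 4 from 697689 to 721173, with 11 distinct exons in 4 transcripts. The other Pax6 orthologue, toy (FBgn0019650), lies on the same strand and chromosome from 989725 to 1007922, with 12 distinct exons in 3 transcripts. On chromosome arm 3L, eyg (FBgn0000625) spans 12462537 to 12468021 and toe (FBgn0036285) spans 12422510 to 12432668, both on the minus strand and 29868 bases apart with no protein-coding gene between them. No annotated gene overlaps any of the 4 genes, so their reads are not shared with an overlapping or antisense gene.

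The libraries hold 42618478 and 116712060 unique molecular identifiers (UMIs, each standing for a captured mRNA molecule) in 6548 cells of experiment 1 and 5343 cells of experiment 2. Cells with a UMI of dpn, a NB gene, and less than 10% mitochondrial UMIs numbered 776 and 2298, with median depths of 9845 and 37671 UMIs. Those without dpn numbered 495 and 1844, with medians of 2525 and 978 UMIs. The dpn-positive cells so chosen are called NBs below. The paper treated some clusters of its dpn-positive cells as outliers rather than medulla NBs, since most of their cells lacked detectable NB markers such as mira. Those clusters were not removed here. The summed NB markers stood at 2191 and 2343 CPM (UMIs of a gene or list per 1000000 UMIs of the summed cells) in dpn-positive cells, against 592 and 561 CPM in dpn-negative cells, and the 6 neuron markers at 1646 and 1102 CPM, against 4962 and 3792 CPM. The NB list includes dpn, which is absent from dpn-negative cells by the rule, so part of the gap in NB markers was fixed in advance. No doublet caller was run, and 9 of 11891 barcodes occur in both libraries. Below, values are given for experiment 1 first and experiment 2 second, and intervals are exact and cover counting error only.

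Among the 4 genes, ey was higher in NBs, toy was higher in dpn-negative cells, and eyg and toe were at or near the limit of detection. NBs held 1325 and 7754 UMIs of ey, or 77.8 and 76.5 CPM, and 125 and 190 UMIs of toy, or 7.34 and 1.88 CPM. The dpn-negative cells held 119 and 315 UMIs of ey, or 45.2 and 31.0 CPM, and 367 and 1219 UMIs of toy, or 139 and 120 CPM. Both libraries showed the same direction for ey and for toy.

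The difference between NBs and dpn-negative cells passed the test for both genes. In edgeR's quasi-likelihood test on the summed UMIs, ey was higher in NBs by 1.11 on the log2 scale (SE 0.16, adjusted p = 0.0240), where 18.6% of 8285 genes were called higher in NBs. For toy the log2 fold change of NBs over dpn-negative cells was -5.08 (SE 0.61, adjusted p = 0.0201), where 24.4% of genes were called lower. Within a single library the log2 values were 0.87 in experiment 1 and 1.33 in experiment 2 for ey, and -4.15 and -5.93 for toy. With the mitochondrial limit at 20%, the log2 values were 0.99 for ey and -4.21 for toy and neither call was kept (edgeR adjusted p = 0.184 and 0.161). This fit has 1 residual degree of freedom.

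To follow ey over the life of the NB without using ey itself, each NB was placed by hth, erm, slp1, D, B-H1, tll or gcm, in that order of age, whichever stood highest relative to its 99th percentile in the library and had at least 2 UMIs. This placed 563 and 2039 NBs. All 7 are genes of transcription factors, and hth marks the youngest and gcm the oldest NBs.

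The level of ey formed a window over the erm and slp1 stages. In experiment 1, ey stood at 48.1 CPM in the hth stage, 151 CPM in the erm stage, 114 CPM in the slp1 stage, 32.4 CPM in the D stage, 9.24 CPM in the B-H1 stage, 4.86 CPM in the tll stage and 10.8 CPM in the gcm stage. In experiment 2 it stood at 5.98 CPM in the hth stage, 146 CPM in the erm stage, 114 CPM in the slp1 stage, 5.12 CPM in the D stage, 5.74 CPM in the B-H1 stage, 3.81 CPM in the tll stage and 7.05 CPM in the gcm stage. The erm and slp1 stages were above every other stage in both libraries, and the libraries differed most in the hth and D stages, where experiment 1 was the higher. NBs that held none of the 7 factors at 2 UMIs stood at 119 and 125 CPM of ey, with low median depths of 2506 and 8140 UMIs.

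**Figure D1:**
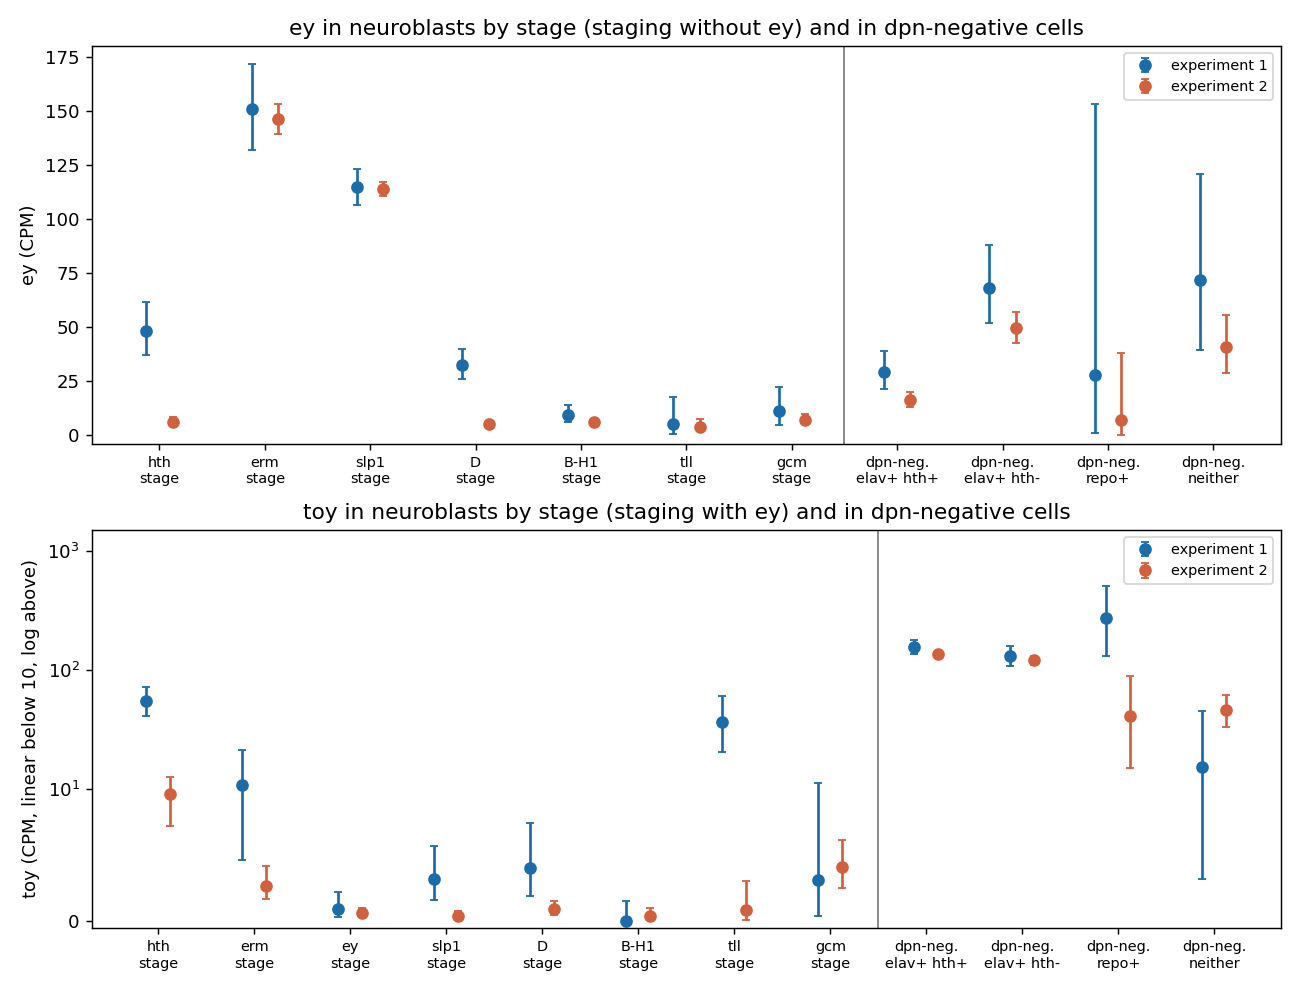
Levels of ey (top, CPM on a linear axis) and toy (bottom, CPM, linear below 10 and log above) in NBs by stage, from young at the left to old, and in the 4 classes of dpn-negative cells at the right of the line. Points are the summed cells of a library, bars are exact 95% Poisson intervals. The ey points of the erm and slp1 stages lie between 114 and 151 CPM, above all other stages, and the toy points of the elav-positive classes lie between 121 and 156 CPM.

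The opening of this window passed the test. In edgeR, ey was higher in the erm stage than in the hth stage by 3.15 on the log2 scale (SE 0.59, adjusted p = 0.00444), where 7.36% of 7284 genes were called higher. The log2 value was 1.72 in experiment 1 alone and 4.53 in experiment 2 alone. The summed neuron markers, with all 6 detected in every group, stood at 815 and 546 CPM in the erm stage, against 3451 and 572 CPM in the hth stage, and without NBs holding neuron markers the difference was 3.37 (edgeR adjusted p = 0.000133). The 4 markers of ganglion mother cells or new neurons stood at 513 and 600 CPM in the erm stage, against 9536 and 850 CPM in the hth stage. The 6 neuroepithelium markers stood at 302 and 262 CPM, against 881 and 811 CPM, all were detected, and the part of these lists in the difference of ey was not tested. The call was not kept without the replicate block, that is without a term for the library (2.72, adjusted p = 0.143), or with the mitochondrial limit at 20% (2.82, adjusted p = 0.119).

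Its closing passed as well. The level of ey was 32.4 and 5.12 CPM in the D stage, against 114 and 114 CPM in the slp1 stage, a log2 fold change of -3.23 (SE 0.55, edgeR adjusted p = 0.0190), where 0.439% of genes were called lower. The value was -1.85 in experiment 1 alone and -4.48 in experiment 2 alone. Neuron markers stood at 1547 and 1392 CPM in the D stage, against 1059 and 822 CPM in the slp1 stage, and without NBs holding them the log2 value was -3.72 (edgeR adjusted p = 3.87e-05). The call was not kept without the replicate block (-2.80, edgeR adjusted p = 0.902) or with the mitochondrial limit at 20% (-2.67, adjusted p = 1).

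Inside the window and after it, no difference of ey passed the test. The slp1 stage differed from the erm stage by -0.42 on the log2 scale (SE 0.45, edgeR adjusted p = 0.719), where 1.72% of genes were called lower. Among the late stages the log2 values were -0.83 for B-H1 over D (SE 0.69, edgeR adjusted p = 0.715), -0.66 for tll over B-H1 (SE 1.27, adjusted p = 0.895) and 1.04 for gcm over tll (SE 1.32, adjusted p = 0.843), where 0.604% and 0.563% of genes were called lower and 0.220% higher. The tll stage rests on 2 and 9 UMIs of ey.

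**Figure D2:**
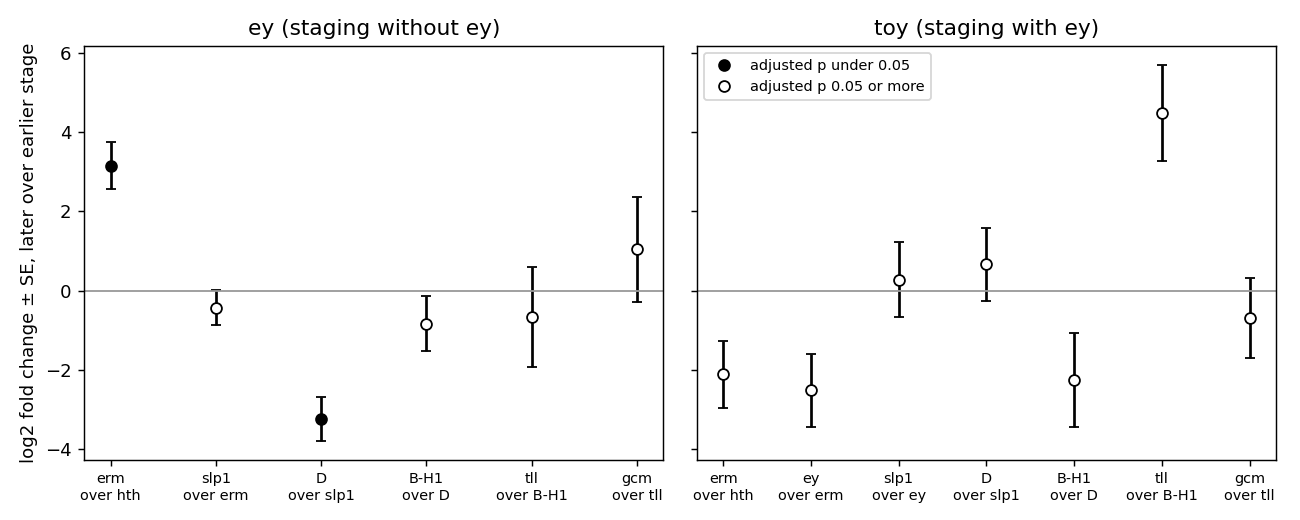
Differences between neighbouring stages for ey (left, NBs placed without ey) and toy (right, NBs placed with ey), as edgeR log2 fold changes of the later over the earlier stage, with bars of 1 SE. Filled points passed an adjusted p of 0.05, which were erm over hth at 3.15 and D over slp1 at -3.23 for ey, and none for toy.

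The share of NBs with a UMI of ey was compared at an equal depth of 2000 UMIs by thinning, which left out the 97 and 118 NBs that were shallower. It was highest in the erm stage and lower from the D stage on in both libraries, but in experiment 1 the hth stage was close to the erm stage, so that its opening seen in CPM was not seen in the shares. This share was 22.7% and 2.41% in the hth stage, 24.2% and 21.1% in the erm stage, 19.9% and 15.4% in the slp1 stage, 8.33% and 0.673% in the D stage, 2.22% and 0% (0 of 301 NBs, exact upper limit 1.22%) in the B-H1 stage and 0% (0 of 49 NBs, exact upper limit 7.25%) and 0.920% in the gcm stage. In the tll stage it was 0% (0 of 24 NBs, exact upper limit 14.2%) and 1.87%. Without thinning, the erm stage had a share of 57.6% and 80.4% at median depths of 26674 and 89837 UMIs, and the gcm stage 13.5% and 9.20% at 14129 and 16223 UMIs. The old stages serve as the background here, and the hth stage of experiment 1 stood well above it whereas that of experiment 2 did not. At this thinned depth, the NBs of the erm and slp1 stages without a UMI of ey cannot be called free of ey.

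Which of the early factors a NB carried moved with its ey level. Among NBs without D, B-H1, tll and gcm, those with hth only held 29.1 and 1.30 CPM of ey (49 and 35 NBs), and those with both hth and opa, a gene of a pair-rule transcription factor, held 63.0 and 23.3 CPM (10 and 14 NBs). NBs with opa only held 146 and 153 CPM (28 and 73 NBs), and those with erm only, a zinc finger factor, held 96.6 and 185 CPM (7 and 32 NBs). NBs with opa and slp1 held 165 and 169 CPM (50 and 334 NBs), and those with slp1 only held 54.1 and 67.1 CPM (56 and 156 NBs).

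In both libraries ey was lowest where hth stood alone, and NBs with slp1 and opa held more of it than NBs with slp1 alone. The NBs with slp1 and opa were deeper, with medians of 67256 and 75878 UMIs, against 6997.5 and 40460 UMIs with slp1 alone. In shallow NBs opa can be missed, so NBs with slp1 alone cannot be called free of opa. NBs with erm, opa and slp1 held 241 and 227 CPM of ey (1 and 18 NBs). The order of erm-only and erm-and-opa NBs differed between the libraries, with 129 and 104 CPM where both were present. The groups with erm and opa and with opa and slp1 could include NBs with hth, whereas those with opa, erm or slp1 only could not. These groups were defined from the cells, differ in depth and carry no test.

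**Figure D3:**
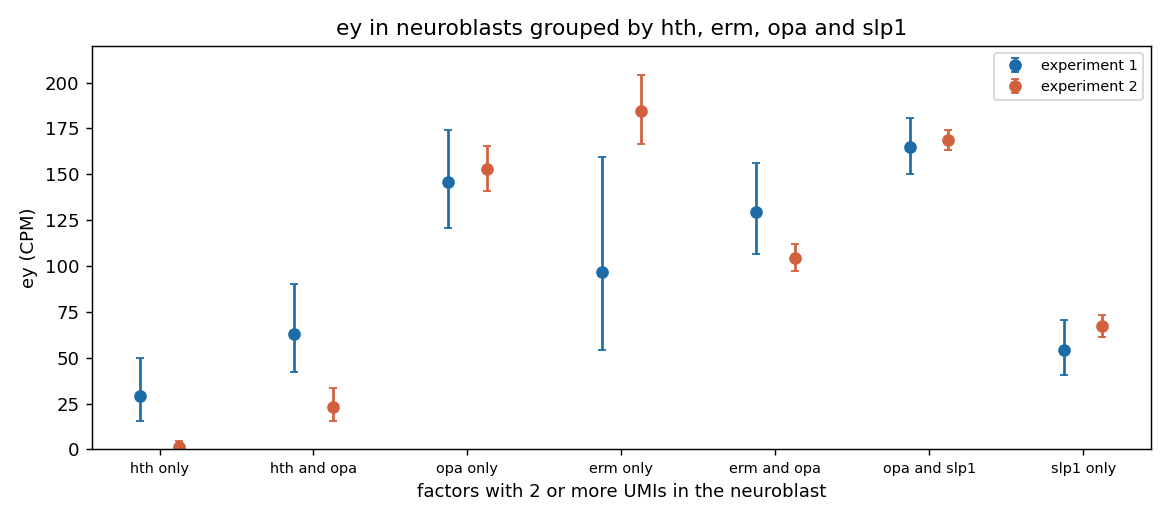
Level of ey (CPM) in NBs grouped by which of hth, erm, opa and slp1 they held at 2 or more UMIs, for NBs without D, B-H1, tll and gcm. The groups with erm and opa and with opa and slp1 were formed without regard to hth, whereas the groups with opa, erm or slp1 only leave out NBs with hth. Points are the summed NBs of a library and bars are exact 95% Poisson intervals. NBs with opa and slp1 stood at 165 and 169 CPM, against 54.1 and 67.1 CPM in NBs with slp1 only, which were shallower. NBs with erm, opa and slp1 are not shown.

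Much of the ey window overlapped with slp1, the forkhead factor that follows it. NBs with 2 or more UMIs of both genes numbered 91 and 482, more than the 58 and 168 with ey but not slp1. As a description, since ey placed these cells, the NBs with ey stood at 168 and 164 CPM of it without slp1 and at 154 and 157 CPM with slp1. NBs with slp1 but not ey numbered 214 and 793.

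Where ey was allowed to place NBs too, its own levels followed from the rule, at 193 and 201 CPM in the ey stage of 109 and 371 NBs. This staging, with 8 factors and 583 and 2104 NBs placed, was used for toy.

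The level of toy in NBs was low in most stages. It stood at 55.3 and 9.59 CPM in the hth stage, 10.8 and 2.69 CPM in the erm stage, 0.956 and 0.642 CPM in the ey stage, 3.16 and 0.424 CPM in the slp1 stage, 4.04 and 0.911 CPM in the D stage, 36.4 and 0.846 CPM in the tll stage and 3.09 and 4.07 CPM in the gcm stage. In the B-H1 stage experiment 1 held no UMI of toy, which allows a level of up to 1.22 CPM, and experiment 2 held 4 UMIs, or 0.379 CPM. NBs that held none of the 8 factors at 2 UMIs stood at 33.3 and 27.2 CPM of toy. The hth stage was the highest of the 8 stages in both libraries, with its UMIs in 6 and 7 NBs of which the top 5 held 98.1% and 96.3%, and in experiment 2 the unplaced NBs were above it. In this hth stage the summed neuron markers stood at 4301 and 585 CPM. The markers of ganglion mother cells or new neurons stood at 11175 and 881 CPM.

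No step of toy between neighbouring stages passed the test. The erm stage differed from the hth stage by -2.11 on the log2 scale (SE 0.85, edgeR adjusted p = 0.122), where 6.44% of 7420 genes were called lower, and the ey stage from the erm stage by -2.51 (SE 0.93, adjusted p = 0.255), where 0.943% were called lower. The later steps were 0.27 for slp1 over ey (SE 0.95, edgeR adjusted p = 1), 0.67 for D over slp1 (SE 0.93, adjusted p = 1), -2.25 for B-H1 over D (SE 1.19, adjusted p = 0.480) and -0.69 for gcm over tll (SE 1.00, adjusted p = 0.860). In these, 0.404% and 0.0404% of genes were called higher and 0.970% and 0.566% lower. The tll stage differed from the B-H1 stage by 4.49 (SE 1.21, edgeR adjusted p = 0.0982), where 0.849% were called higher. That value was 7.04 in experiment 1 alone and 0.75 in experiment 2 alone, and 14 of the 15 UMIs in the tll stage of experiment 1 came from 1 NB. It did pass in DESeq2 (4.74, adjusted p = 0.00664), and erm over hth passed in edgeR when 4 UMIs were needed to place a NB (-3.38, adjusted p = 0.0334).

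The UMIs of toy sat in fewer NBs than those of ey, and toy had far fewer of them (125 and 190, against 1325 and 7754). The numbers below depend on these totals, so they cannot show that toy was more concentrated than ey. Among NBs with a UMI of the gene, 5 of 42 and 7 of 65 held 50% for toy. For ey it was 31 of 277 and 161 of 854. In experiment 1, 42 NBs held toy, 29 of them a single UMI, and 5 NBs held at least 50% of all its UMIs in NBs. In experiment 2, 65 NBs held toy, 47 of them a single UMI, and 7 NBs held at least 50%. For ey the numbers were 277 and 854 NBs with a UMI, with 31 and 161 NBs to reach 50%, and the top 10 NBs held 20% and 5.07% of its UMIs, whereas the top 10 held 72% and 65.8% of the UMIs of toy.

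**Figure D4:**
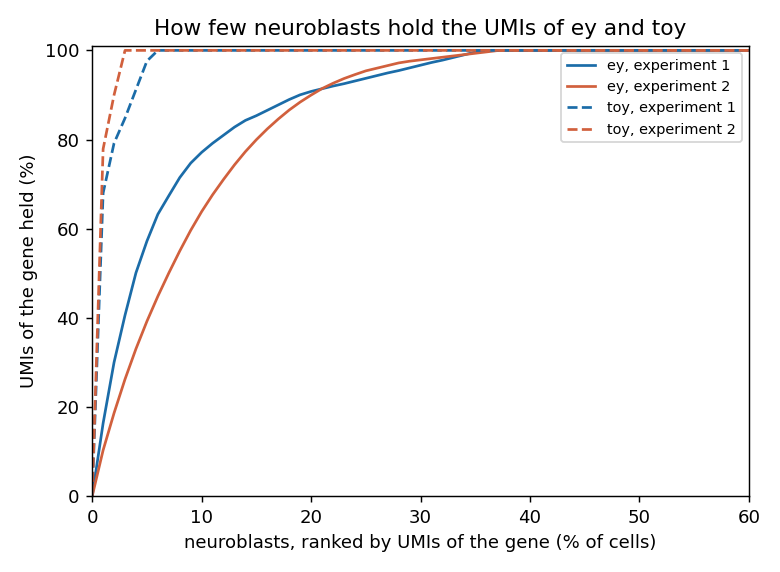
Share of the UMIs of ey (solid) and toy (dashed) held by NBs, ranked by their UMIs of the gene, for the 776 NBs of experiment 1 and the 2298 NBs of experiment 2. The toy curves reach 50% within 5 and 7 NBs, and the ey curves within 31 and 161 NBs. The curves depend on the total UMIs of a gene, which were far fewer for toy.

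Most UMIs of toy in the dpn-positive cells called NBs came from those with neuron markers, which need not be NBs. NBs with UMIs of at least 2 of nSyb, brp, Syt1, para and fne were 26.5% and 7.57% of all NBs and held 80% and 65.3% of the UMIs of toy. Their level was 20.6 and 12.8 CPM, against 2.05 and 0.720 CPM in the other NBs. The level of ey was 70.5 and 84.4 CPM in NBs with these markers, against 80.6 and 75.7 CPM in the others. NBs without a UMI of mira, the adaptor protein of asymmetric division, held 105 and 32.3 CPM of toy, against 3.54 and 1.03 CPM in NBs with mira, whereas for ey the levels were 25.0 and 9.18 CPM, against 79.8 and 78.4 CPM. The cells without mira were 15.1% and 8.53% of the cells called NBs and held 53.6% and 46.3% of the UMIs of toy. These values were looked up after the levels by stage had been seen. Without the NBs holding neuron markers, the difference of toy between NBs and dpn-negative cells was -6.89 on the log2 scale (edgeR adjusted p = 4.84e-07). These cells held most UMIs of toy in NBs and were left out on the NB side only. A larger difference thus followed from the choice of cells and is no further evidence. The fit has 1 residual degree of freedom.

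The dpn-negative cells were divided by 1 UMI of repo, a glial gene, or of elav, a gene of neurons, and the elav-positive cells by 1 UMI of hth. The elav-positive cells with hth numbered 162 and 324, and those without hth 219 and 547. Cells with neither repo nor elav numbered 103 and 943 and were shallow, with medians of 1706 and 719 UMIs, and only 11 and 30 cells held repo.

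In these cells toy went with elav, and ey with the absence of hth. The level of toy was 156 and 135 CPM in elav-positive cells with hth and 132 and 121 CPM in those without, against 15.4 and 45.8 CPM in cells with neither elav nor repo. For elav-positive over elav-free cells, toy gave a log2 fold change of 1.57 (SE 0.41, edgeR adjusted p = 0.0136), where 11.5% of 6509 genes were called higher. It was 3.00 in experiment 1 alone, where elav-free cells held 3 UMIs of toy, and 1.21 in experiment 2 alone. Among elav-positive cells, toy with hth over without hth gave 0.28 (SE 0.35, edgeR adjusted p = 0.638), where 14.0% of genes were called higher.

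The level of ey was 28.9 and 16.0 CPM in elav-positive cells with hth, against 68.1 and 49.4 CPM in those without hth. This gave a log2 fold change of -1.37 (SE 0.29, edgeR adjusted p = 0.00390), where 6.79% of genes were called lower, and -1.07 and -1.52 in the single libraries. The NB markers moved with it, at 322 and 208 CPM of the list in elav-positive cells with hth, against 905 and 974 CPM in those without, with 5 of the 6 detected in each class and dpn at 0 by the rule, and their part in the difference of ey was not tested. Between elav-positive and elav-free cells, ey differed by -0.79 (SE 0.30, edgeR adjusted p = 0.0711), where 12.8% of genes were called lower, and elav-free cells held 71.8 and 40.5 CPM of it. In repo-positive cells ey had 1 UMI in each library, and toy had 10 and 6 UMIs, in 2 cells and 1 cell.

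Thinned to 2000 UMIs, a UMI of toy was found in 2.06% and 0.550% of NBs of at least that depth, against 10.3% and 11.6% of such dpn-negative cells. A UMI of ey was found in 14.1% and 8.17% of these NBs, against 12.2% and 5.23% of the dpn-negative cells. Unthinned, the shares for toy were 5.41% and 2.83% of NBs, against 10.7% and 9.16% of dpn-negative cells, and those for ey were 35.7% and 37.2% of NBs, against 15.8% and 7.10% of dpn-negative cells. In dpn-negative cells with toy, the median was 5 and 3 UMIs and the highest cell held 24 and 62.

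The genes that went with ey only and with toy only in elav-positive cells differed. Of these cells, 59 and 83 held only ey, 41 and 116 only toy, 7 and 19 both and 274 and 653 neither. Cells with only ey were high in opa (81.9 and 169 CPM, against 40.1 and 37.5 CPM in cells with neither) and in mira (383 and 261 CPM in cells with only ey, against 68.5 and 24.0 CPM in those with only toy). Cells with only toy were high in ap, the LIM-homeodomain gene apterous, at 224 and 117 CPM, against 81.4 and 74.4 CPM in cells with neither and 31.0 and 8.26 CPM in cells with only ey. They were also high in Sox102F, an HMG-box gene, at 159 and 139 CPM, against 79.5 and 64.8 CPM in cells with neither and 31.0 and 8.95 CPM in cells with only ey. The few cells with both genes did not share this. They held 833 and 670 CPM of toy, but no UMI of Sox102F (exact upper limits 64.0 and 13.1 CPM) and 0 and 21.4 CPM of ap. Their levels were 17.4 and 10.7 CPM for opa and 0 and 14.3 CPM for mira. For dac they stood at 226 and 128 CPM, against 63.6 and 37.6 CPM in cells with neither. The gene kn was highest in cells with only ey in both libraries, by far more in experiment 1, at 314 and 66.1 CPM in cells with only ey, 46.7 and 34.4 CPM with only toy and 14.0 and 42.7 CPM with neither. In experiment 1 only 11 elav-positive cells held kn, and 45.5% of these held ey. The 142 UMIs behind 314 CPM thus came from few cells.

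Read the other way, elav-positive cells with ap held 371 and 265 CPM of toy, against 100 and 95.1 CPM in those without ap, and 14.4 and 13.8 CPM of ey, against 49.3 and 34.6 CPM. With Sox102F, the level of toy was 232 and 269 CPM, against 122 and 107 CPM without it, and that of ey was 9.14 and 0.816 CPM, against 53.3 and 35.1 CPM. In cells with opa the level of ey was 95.5 and 74.4 CPM, against 34.8 and 22.2 CPM without it. With kn (11 and 39 cells), the level of ey was 170 and 26.3 CPM, against 37.8 and 30.8 CPM without it. So ey was not higher with kn in experiment 2. The level of toy was 220 and 204 CPM with kn, against 144 and 124 CPM without it. Cells with slp2 held 47.8 and 41.7 CPM of toy, against 191 and 157 CPM without it. These splits were made from the cells themselves, differ in depth and are descriptions.

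**Figure D5:**
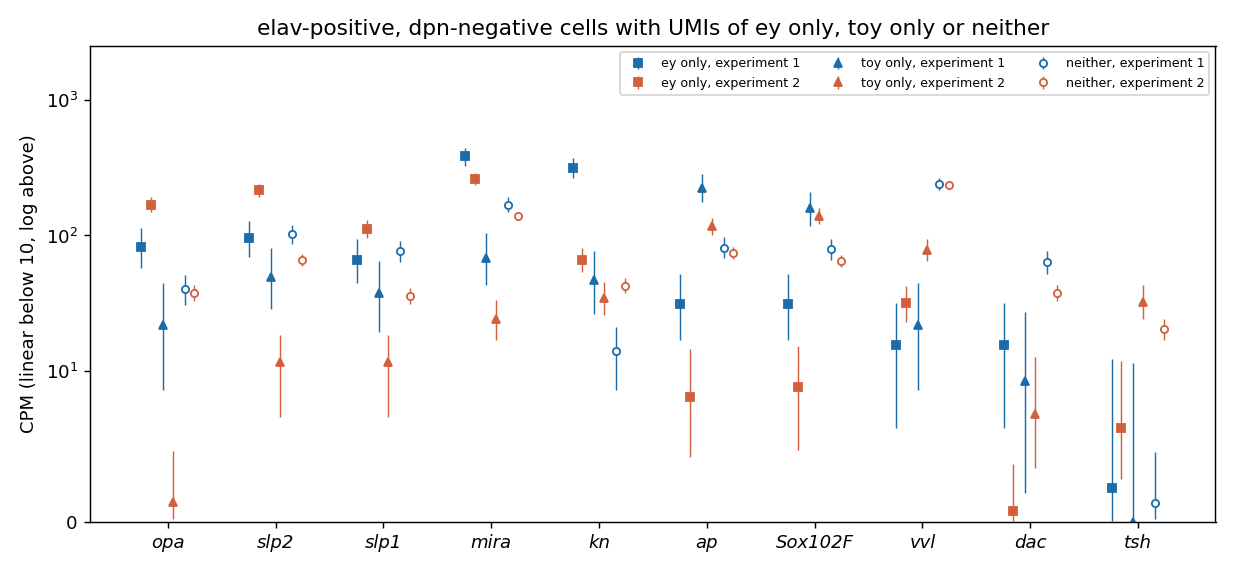
Levels (CPM, linear below 10 and log above) of 10 genes in elav-positive, dpn-negative cells that held UMIs of ey only (squares), toy only (triangles) or neither (open circles), with experiment 1 in blue and experiment 2 in orange. Bars are exact 95% Poisson intervals, cut at 0. In both libraries ap and Sox102F are highest in cells with only toy, and opa and mira in cells with only ey. Cells with both genes are not shown.

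The intervals of the shares of NBs with toy overlapped between NBs with and without ey. With all UMIs, toy was found in 6.50% (3.90% to 10.1%) and 3.28% (2.19% to 4.70%) of NBs with ey, against 4.81% (3.11% to 7.07%) and 2.56% (1.81% to 3.51%) of NBs without it, and 18 and 28 NBs held both. At 2000 UMIs per cell, 1 of 96 NBs with ey in experiment 1 and 0 of 178 in experiment 2 (exact upper limit 2.05%) also held toy, against 2.23% and 0.599% of NBs without ey, so the order of the shares turned with the depth. In elav-positive dpn-negative cells at that depth, toy was found in 5.71% (0.700% to 19.2%) and 13.8% (3.89% to 31.7%) of cells with ey, against 11.3% (7.58% to 16.0%) and 12.4% (9.76% to 15.5%) of cells without it. The intervals overlap in both libraries and at both depths.

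For eyg, the 2 libraries held 4 UMIs in all, 1 in experiment 1 and 3 in experiment 2. Of these, 2 were in hth-stage NBs of experiment 2 and 1 in a dpn-negative cell of the same library without elav or repo, and the remaining UMI was in a dpn-positive cell of experiment 1 with 10% or more mitochondrial UMIs. No UMI of toe was found among 159330538, which allows a level of up to 0.0866 and 0.0316 CPM over all cells and of up to 0.216 and 0.0364 CPM in NBs (exact upper limits). Neither gene passed edgeR's filter on low counts in any fit, so neither was tested in the main fits. With no filter, eyg entered the fits and was not called in any contrast made for it. Of the 17753 genes, 4553 had no UMI in either library, as toe, and 6510 had 3 UMIs or fewer.

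The other 6 Pax genes, prd, gsb, gsb-n, Poxm, Poxn and sv, were low as well. Over all cells sv was the highest of them, with 14 and 86 UMIs, and prd had no UMI. Only sv was tested in any fit, in NBs over dpn-negative cells, and it was not called (edgeR adjusted p = 0.0731).

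Of the 10 retinal determination genes other than ey and toy that were tested, 6 were lower in NBs than in dpn-negative cells and none was higher, where 24.4% of all genes tested were lower and 18.6% higher, with a list median of -1.97 on the log2 scale, against 0.08 over all genes tested. They were hth at -3.25, Optix at -2.52, eya at -1.99, dac at -1.96, danr at -1.49 and exd at -0.47, whereas so, tsh, tio and dan were not called. With the mitochondrial limit at 20%, no gene was called in this contrast, so all these calls were lost. Between stages, eya, which codes for a phosphatase and coactivator, stood at 0.655 and 0.168 CPM in the erm stage, against 9.77 and 14.1 CPM in the hth stage (edgeR adjusted p = 0.00224, and 0.0608 with the 20% limit), where 7.58% of genes were called lower. The level of dac was 158 and 44.4 CPM in the tll stage, against 0 UMIs in the B-H1 stage of both libraries. Optix, a homeobox gene of the so family, stood at 2.95 and 1.24 CPM in the slp1 stage, against 6.55 and 24.0 CPM in the erm stage (edgeR adjusted p = 0.0290), where 1.72% of genes were called lower. The fall was much smaller in experiment 1, and the call was not kept without the replicate block (adjusted p = 0.411) or with the 20% limit (adjusted p = 0.692).

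A list of 12 factors of the Ey stage, the stages after it and their progeny was drawn up here from genes that the study discusses on these samples, so it is no independent evidence of a direction. Of these genes, 5 were higher and 6 lower in NBs than in dpn-negative cells, where 18.6% of all genes tested were higher and 24.4% lower, with a median of -0.24. None of these calls was kept with the mitochondrial limit at 20%. The higher were slp2 at 2.02, D at 1.73, slp1 at 1.66, opa at 1.31 and scro at 0.55 on the log2 scale, which share their direction with ey. The lower were Sox102F at -6.14, vvl at -4.67, kn at -4.54, ap at -3.78, dac at -1.96 and erm at -1.03, which share theirs with toy.

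Across stages, 9 genes of this list that placed no NBs were tested. In erm over hth, 2 were higher and 1 lower, where 7.36% and 7.58% of all genes were. In D over slp1, 0 were higher and 1 lower, where 0.439% of all genes were lower. That 1 gene was opa, which closed where ey closed, at 39.3 and 8.83 CPM in the D stage, against 159 and 177 CPM in the slp1 stage (log2 -3.21, SE 0.56, edgeR adjusted p = 0.0228). Like that of ey, this call was not kept without the replicate block (-2.96, edgeR adjusted p = 0.490) or with the 20% limit (-2.40, adjusted p = 1). At the opening of ey, opa did not pass the test (erm over hth 0.41, SE 0.49, edgeR adjusted p = 0.644). In that step ap was higher (2.03, edgeR adjusted p = 0.0368) and slp2 lower (-1.05, adjusted p = 0.0489). The homeobox gene hbn opened where ey opened, at 61.5 and 65.8 CPM in the erm stage, against 15.0 and 2.49 CPM in the hth stage (log2 3.59, SE 0.39, edgeR adjusted p = 0.000325, and 0.0929 with the 20% limit). It stood at 94.7 and 94.1 CPM in the D stage, against 72.9 and 72.9 CPM in the slp1 stage (log2 0.32, edgeR adjusted p = 0.878).

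The genes with a pattern most like that of ey over 11 groups (7 stages and 4 classes of dpn-negative cells) were Oaz, dmrt99B, opa, NetA and NUCB1, with correlations of log2(CPM + 1) of 0.93 and 0.78 for Oaz and of 0.85 and 0.74 for opa. For toy over 12 groups they were CG12605, CG5065, nSyb, CanB2 and CG17124, with 0.97 and 0.99 for CG12605 and 0.95 and 0.97 for nSyb, a synaptic vesicle gene of neurons. Between ey and toy themselves the correlation was 0.03 and 0.13 over the 11 groups. The groups of a library share its depth and free RNA, and these coefficients are descriptions.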

How the data were processed

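The files hold raw counts of UMIs per gene and cell, which the authors deposited without normalization for the cells called by Cell Ranger (3.0.1 for experiment 1 and 3.1.0 for experiment 2), on a BDGP6 reference. The 4 genes and all lists were chosen with earlier results of these data known. The named genes are the 4 members, those of the Pax, retinal determination and Ey-stage lists (drawn up here) that passed a test or reached 20 CPM in a group, and the 5 genes most like ey or toy.

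Cells with 10% or more of UMIs on the 38 mitochondrial genes were left out, and so were the 5 dpn-positive cells with the most UMIs. The sort had a gate for single cells, and doublets were not otherwise removed. Cells are not replicates, so UMIs were summed per library and group (14, 16, 4 and 8 sums in the 4 fits). The sums were tested in edgeR 4.0.16 (R 4.3.3) with TMM normalization, filterByExpr and the quasi-likelihood F test, with p-values adjusted by Benjamini-Hochberg over all genes tested and called under 0.05. The script was tested on simulated data. The same UMIs placed and tested cells, so p-values are conditional on the placing.

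The library entered as a block, since both libraries give cells to all groups, and within a library the deviations of any pair of groups correlated (0.15 to 0.74 for stages, 0.29 for NBs and dpn-negative cells and 0.10 to 0.30 for classes). With the library as a block, p-values rest on how far differences between groups disagree between these 2 libraries. This disagreement is pooled over the groups of a fit, and edgeR shares information on it over genes. The 4 fits left 6, 7, 1 and 3 residual degrees of freedom, in the order of the sums above. Alternatives were RLE size factors, DESeq2 1.42.0, no filter, no block, a mitochondrial limit of 20%, the 5 deepest cells kept, 1 or 4 UMIs to place a NB (2 for a class marker in the second case), factors scaled by their mean, placing on 50% of UMIs and testing the rest, and each library alone. Leaving out NBs with neuron markers or without mira was added after the data had been seen.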

Additional observations from a re-analysis of the deposited data

Results flagged for a closer look

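In dpn-positive cells set aside for 10% or more mitochondrial UMIs (2836 in experiment 1 and 229 in experiment 2), which entered no comparison, ey stood at 71.5 and 66.5 CPM and toy at 12.2 and 2.03 CPM, above the exact upper limit that a count of 0 allows (0.196 and 1.87 CPM). In experiment 1, 210 of these cells held toy, and 92.9% of the 210 held a single UMI of it, with at most 5 UMIs in a cell. In the NBs kept from that library the highest cell held 18 UMIs of toy. With 2 libraries, no group was large enough to look for a library far from the others.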

How the results depend on the processing

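Of 238 values of 19 results under the alternatives, 213 kept their direction and their side of the threshold. Adjusted p-values in this paragraph are from edgeR unless DESeq2 is named. Without the replicate block, ey lost its calls for erm over hth (2.72, adjusted p = 0.143) and D over slp1 (-2.80, adjusted p = 0.902), and no other call of ey or toy changed. With the mitochondrial limit at 20%, which adds cells, ey lost the same calls (2.82 and -2.67) and both genes lost theirs between NBs and dpn-negative cells (0.99 for ey and -4.21 for toy), and D over slp1 of toy reversed to -0.063. With 1 UMI to place a NB, tll over B-H1 (0.88) and gcm over tll (-0.85) of ey and slp1 over ey (-0.020) and D over slp1 (-0.11) of toy reversed. With 4 UMIs, erm over hth of toy was called (-3.38, adjusted p = 0.0334), as was elav-positive over elav-free of ey (-0.81, adjusted p = 0.0317), and gcm over tll of toy reversed to 2.46. Higher toy in tll over B-H1 was called in DESeq2 (4.74, adjusted p = 0.00664) and without a filter (4.44, adjusted p = 0.0293). With placing on 50% of UMIs, slp1 over ey (-0.11) and hth-positive over hth-free cells (-0.0079) of toy reversed. Without NBs holding neuron markers, tll over B-H1 of ey (0.21) and ey over erm (0.94), slp1 over ey (-0.018) and gcm over tll (0.15) of toy reversed. In single libraries, B-H1 over D of ey ranged from -1.76 to 0.15, slp1 over ey of toy from -0.45 to 1.42, and gcm over tll of toy from -3.35 to 2.04, so these reversed without experiment 1. The causes were not tested.

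Counts of called genes moved more. The count lower in D over slp1 (32) ranged from 0 without the block to 115, that higher in erm over hth (536) from 15 with the 20% limit to 568, and those higher and lower in NBs (1539 and 2019) fell to 0 and 0 with the 20% limit. Of 32 such counts, 30 moved by more than 1.5 times with the 20% limit, 28 without the block and 18 in DESeq2. In the tll stage and in cells without elav or repo, few UMIs limit what can be seen of either gene.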
